A study of Mus musculus with 6 samples.

Results

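The genes described here are 10 members of 2 linked families, the matrix metalloproteinases (MMPs) Mmp12, Mmp9, Mmp14, Mmp19, Mmp2, Mmp13 and Mmp3, and the tissue inhibitors of metalloproteinases (TIMPs) Timp1, Timp2 and Timp3. They were chosen by name from 52550 genes, with their differences between MSR1 KO and MSR1 WT in these same libraries already known, so every difference of a member below is a description and carries no p-value. All 10 were among the 16402 genes that had enough counts to be tested.

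RNA-seq was performed on macrophages grown from the bone marrow of C57BL/6 mice, either MSR1 KO (3 libraries) or MSR1 WT (3 libraries). Bone marrow cells of both genotypes received 25 ng/ml M-CSF, the growth factor that drives macrophage formation, for 7 days. Both were then kept for 48 h in a transwell system with bone marrow stem cells (BMSCs), where a porous membrane separates the cell types. MSR1, encoded by Msr1, is the class A scavenger receptor of macrophages, and the knockout was of the whole animal. The genotype of the BMSCs is not given in the labels. The ages of the mice, and whether each library came from a separate animal, are not given in the labels, although the study speaks of biological replicates, so the errors below measure the spread between these libraries. Total counts ranged from 36143518 to 47417448 per library. Msr1 had 59.0, 45.8 and 43.0 CPM (counts scaled to a library of 1000000) in MSR1 KO against 183, 193 and 223 CPM in MSR1 WT, so its reads were reduced but not absent, and counts per gene do not show which exons they cover. The log2 fold change of Msr1 (MSR1 KO minus MSR1 WT, as throughout) was -2.02 (standard error 0.13), and edgeR's quasi-likelihood test gave an adjusted p = 0.0012 (Benjamini-Hochberg).

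MMPs are zinc-dependent enzymes that cut proteins of the extracellular matrix. They are made as inactive proenzymes and become active once the propeptide is removed, often by another protease. TIMPs bind the active site and block it, so the balance of both families sets how much matrix is degraded. Mmp12 (macrophage elastase) and Mmp9 (gelatinase B) are typical products of macrophages, whereas Mmp2 (gelatinase A), Mmp3 (stromelysin-1) and Mmp13 (collagenase-3) are best known from fibroblasts and other stromal or bone cells.

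The macrophage elastase gene lies in a cluster of MMP genes. Mmp13 (ENSMUSG00000050578.10, chr9:7272514-7283331), Mmp12 (ENSMUSG00000049723.14, chr9:7344381-7369499) and Mmp3 (ENSMUSG00000043613.8, chr9:7445822-7455975) follow each other on the forward strand of chromosome 9 on GRCm38. These 3 neighbours had unlike values between the genotypes, so the 250 bases before their start sites are shown from RefSeq (GRCm38.p6, forward strand, 5′ to 3′). Mmp12 has 2 annotated start sites, hence 2 sequences. Capitals mark the letters TGAGTCA (the AP-1 motif) or GAGGAAG (a PU.1 motif), on either strand.
Mmp13, chr9:7272264-7272513: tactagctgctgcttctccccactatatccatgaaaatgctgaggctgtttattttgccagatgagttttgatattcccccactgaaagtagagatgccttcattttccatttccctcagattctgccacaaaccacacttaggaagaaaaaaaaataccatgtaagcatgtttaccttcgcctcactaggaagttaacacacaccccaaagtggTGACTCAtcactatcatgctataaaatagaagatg
Mmp12 first start site, chr9:7344147-7344396: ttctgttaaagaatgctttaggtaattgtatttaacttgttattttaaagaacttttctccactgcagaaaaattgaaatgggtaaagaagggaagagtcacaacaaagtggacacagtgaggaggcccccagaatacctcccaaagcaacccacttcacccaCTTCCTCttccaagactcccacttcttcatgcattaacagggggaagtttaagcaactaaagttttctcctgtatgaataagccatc
Mmp12 second start site, chr9:7347124-7347373: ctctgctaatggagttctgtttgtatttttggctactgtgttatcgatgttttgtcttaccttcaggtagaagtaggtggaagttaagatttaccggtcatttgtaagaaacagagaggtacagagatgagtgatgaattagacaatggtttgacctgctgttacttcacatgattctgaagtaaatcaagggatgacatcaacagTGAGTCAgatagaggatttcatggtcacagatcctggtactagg
Mmp3, chr9:7445572-7445821: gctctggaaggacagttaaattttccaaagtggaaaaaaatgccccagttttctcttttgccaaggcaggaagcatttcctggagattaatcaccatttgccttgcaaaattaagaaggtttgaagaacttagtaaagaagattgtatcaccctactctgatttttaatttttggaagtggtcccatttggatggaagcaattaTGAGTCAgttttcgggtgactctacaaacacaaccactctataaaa

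The AP-1 motif stood 44 to 38 bases before the second start site of Mmp12, 46 to 40 bases before that of Mmp3 and, on the reverse strand, 35 to 29 bases before that of Mmp13. A PU.1 motif on the reverse strand stood 87 to 81 bases before the first start site of Mmp12. Of all 32851 RefSeq windows of 300 bases (250 before and 50 after a start site), 5.2% held the AP-1 letters and 13.6% the PU.1 letters on either strand. TATAAA occurred in the windows of Mmp3 and Mmp13 and in the second window of Mmp12, and in 13.6% of all windows. The letters CTTTGAT (TCF/LEF, in 3.73% of all windows) and those of a STAT6 motif (in 6.95%) were in none of the 8 windows found for members, which belonged to 7 of the 10 genes (these 3 with Mmp14, Timp1, Timp2 and Timp3). None of the 5 motifs was in the windows of Mmp14, Timp1, Timp2 or Timp3. The GC content of the windows was 38.7% to 43.7% for the 3 genes of the cluster, against 55% to 68.7% for Mmp14 and the TIMPs and a median of 52.7% over all windows. Such matches are descriptions of letters and not sites of binding.

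Mmp12 showed by far the widest gap of the 10 genes. Its level was 156, 145 and 156 CPM in MSR1 KO and 649, 700.1 and 923 CPM in MSR1 WT (5602, 5755 and 7232 counts against 26774, 33219 and 38134). Every MSR1 KO library lay far below every MSR1 WT library. The MSR1 KO libraries also lay close together (152 ± 6.5 CPM, SD, n = 3), whereas those of MSR1 WT spread more widely (757.5 ± 146 CPM, SD, n = 3), with the third library highest. The log2 fold change was -2.32 (standard error 0.13), that is, a level 4.98-fold higher in MSR1 WT. Without the third MSR1 WT library it was -2.15. Among all 16402 tested genes Mmp12 held rank 44 from the most negative log2 fold change and rank 116 by its CPM in MSR1 WT, and 0 of the genes with a more negative log2 fold change were as abundant in MSR1 WT. Its exons share 2.2% of their length with Mmp1b on the opposite strand, whose counts were 0, 4 and 0 in MSR1 KO and 0 in every MSR1 WT library.

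**Figure D1:**
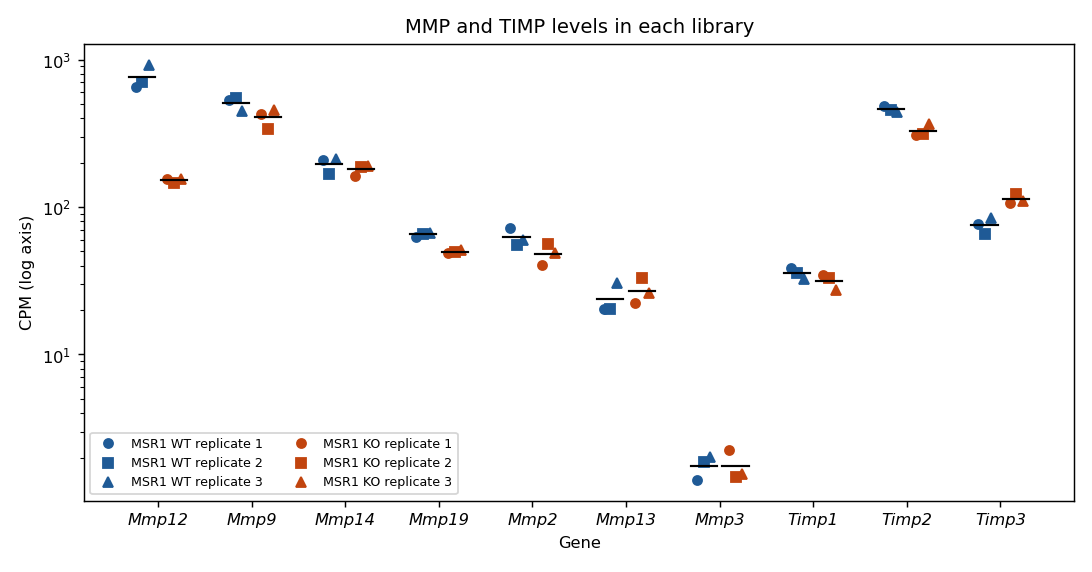
CPM of the 10 genes (log axis) in each library, MSR1 WT in blue and MSR1 KO in orange, with the mean of each group as a line. For Mmp12 the orange points (145 to 156 CPM) lie well under the blue ones (649 to 923 CPM), while most other pairs of groups touch or overlap.

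Mmp9 (ENSMUSG00000017737.2, chr2:164940780-164955850), the other main macrophage protease of the set, did not separate the genotypes. It stood at 426, 341 and 454 CPM in MSR1 KO against 532, 550.2 and 450.1 CPM in MSR1 WT. The third MSR1 KO library thus lay above the third of MSR1 WT. The log2 fold change was -0.33 (standard error 0.12).

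Mmp14 (ENSMUSG00000000957.10, chr14:54431612-54445364) encodes MT1-MMP, a membrane-bound collagenase that also activates pro-MMP2 together with TIMP2. Its levels were 162, 187 and 190.5 CPM in MSR1 KO and 209, 168 and 212 CPM in MSR1 WT, and the ranges overlapped. The log2 fold change of Mmp14 was -0.12 (standard error 0.11). Mmp19 (ENSMUSG00000025355.7, chr10:128790910-128800824), a secreted protease of basement membrane proteins, had 48.6, 49.9 and 51.2 CPM in MSR1 KO and 62.8, 65.6 and 67.1 CPM in MSR1 WT. This was a small but even gap, with a log2 fold change of -0.38 (standard error 0.07) and no overlap between the groups. Of the exons of Mmp19, 28.3% overlap genes on the opposite strand (Gm47093 and Tmem198b), and the strand setting of the counting is not given in the sources used here. The log2 fold change of Tmem198b itself was -0.34 (standard error 0.12), and it was lower in all 3 MSR1 KO libraries, but did not pass the test (adjusted p = 0.16, edgeR's quasi-likelihood test).

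The stromal proteases behaved unlike Mmp12. Mmp2 (ENSMUSG00000031740.8, chr8:92827291-92853420) had 40.1, 56.3 and 48.7 CPM in MSR1 KO against 72.5, 55.1 and 59.8 CPM in MSR1 WT, a log2 fold change of -0.37 (standard error 0.14). The second MSR1 KO library exceeded the second of MSR1 WT, so the groups overlapped. Mmp13 had 22.2, 32.8 and 26.3 CPM in MSR1 KO against 20.2, 20.2 and 30.4 CPM in MSR1 WT. It was the single protease of the 7 with a positive log2 fold change, at 0.20 (standard error 0.20), and its groups overlapped through the third MSR1 WT library, the other 2 of MSR1 WT lying below every MSR1 KO library. Mmp3 was the rarest, with 2.26, 1.48 and 1.55 CPM in MSR1 KO against 1.41, 1.88 and 2.01 CPM in MSR1 WT (59 to 81 and 58 to 89 counts). Its mean was 1.76 CPM in both groups, and the log2 fold change of -0.005 (standard error 0.29) changed sign with the library left out, from -0.21 to 0.10.

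The 3 inhibitors did not move together. Timp2 (ENSMUSG00000017466.9, chr11:118301069-118355740, reverse strand), which both inhibits MMPs and takes part in the activation of pro-MMP2, had 309, 315 and 367 CPM in MSR1 KO against 488, 452 and 438 CPM in MSR1 WT. All MSR1 KO libraries lay below all MSR1 WT libraries, with a log2 fold change of -0.48 (standard error 0.09). Timp3 (ENSMUSG00000020044.13, chr10:86300372-86349506), the inhibitor that stays bound to the matrix and also blocks several ADAM proteases, was higher in MSR1 KO. It had 106, 123 and 110.2 CPM there against 76.5, 65.9 and 83.8 CPM in MSR1 WT. The groups did not overlap, and the log2 fold change was 0.59 (standard error 0.11), a level 1.5-fold higher. Timp3 lies within the gene Syn3 on the opposite strand, which overlaps 21.3% of its exons. Syn3 (synapsin III) rose in MSR1 KO from 1020, 1009 and 981 counts to 1191, 1560 and 1744 (log2 fold change 0.66, standard error 0.10, adjusted p = 0.018, edgeR's quasi-likelihood test), and without strand its reads cannot be told apart from those of Timp3. Timp1 (ENSMUSG00000001131.11, chrX:20870166-20874735), a soluble inhibitor that also binds pro-MMP9, had 34.9, 32.8 and 27.5 CPM in MSR1 KO against 38.6, 35.4 and 32.7 CPM in MSR1 WT. These ranges overlapped narrowly, and the log2 fold change was -0.17 (standard error 0.11). Timp1 lies within an intron of Syn1, and Timp2 contains Cep295nl, in neither case with shared exons.

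**Figure D2:**
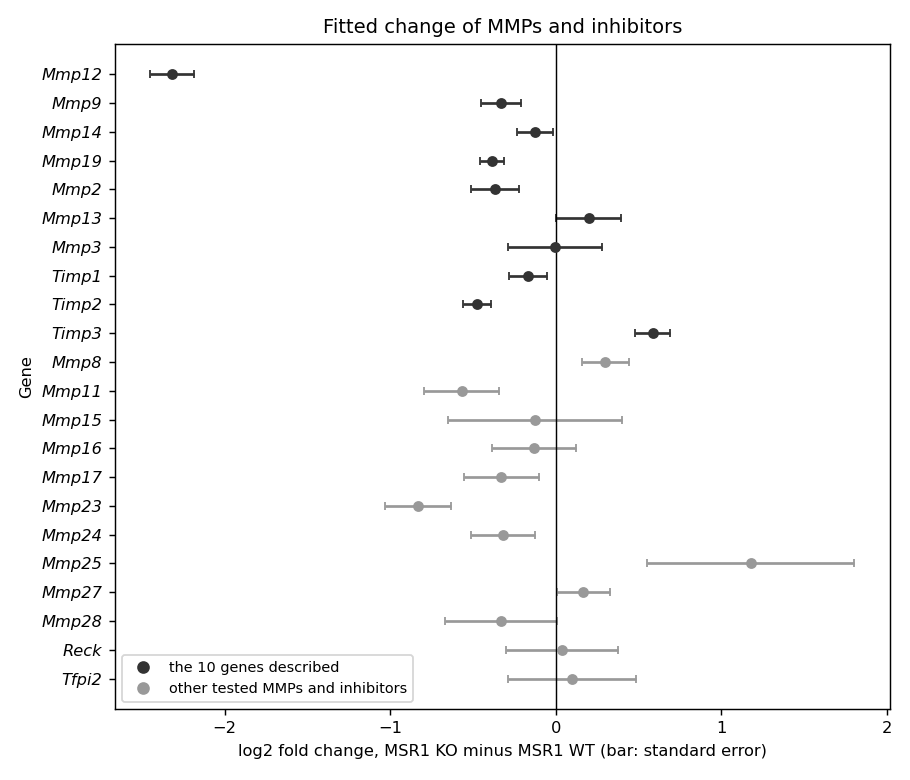
Log2 fold change (MSR1 KO minus MSR1 WT) of the 10 genes in black and of the other tested MMPs and inhibitors in grey, with bars of 1 standard error. Mmp12 stands alone at -2.32, and Timp3 (0.59) lies on the other side of 0 from Timp2 (-0.48).

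At an adjusted p under 0.05 by edgeR's quasi-likelihood test, 3 of the 10 genes were called lower in MSR1 KO (Mmp12, Mmp19 and Timp2) and 1 was called higher (Timp3). Over all tested genes 2.66% were called lower, 2.25% higher and 4.91% either way. By the study's own rule (a fold above 1.5 with an unadjusted p under 0.05), Mmp12 was lower and Timp3 higher, beside 5.05% and 3.59% of all tested genes and 8.64% in both directions. For the same 4 genes that were called after adjustment, the 3 libraries of a genotype did not overlap with those of the other, 3 with MSR1 KO below and 1 with MSR1 KO above. Such gaps held for 13.4% and 12.1% of all tested genes, 25.5% in all. Since the differences were known when the genes were chosen, nothing is read from these shares. The median log2 fold change of the 10 was -0.25, against -0.002 for all tested genes. Mmp12 was called with each of the 6 libraries left out in turn. In contrast, Mmp19 was called in 0 of these 6 fits, Timp2 in 2 (without the third MSR1 KO or the third MSR1 WT library) and Timp3 in 1 (without the third MSR1 WT library). By the study's rule Timp3 was no longer higher without the second MSR1 KO or the second MSR1 WT library. The log2 fold changes of these 3 genes kept their signs, within -0.41 to -0.36 for Mmp19, -0.55 to -0.42 for Timp2 and 0.50 to 0.67 for Timp3.

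**Figure D3:**
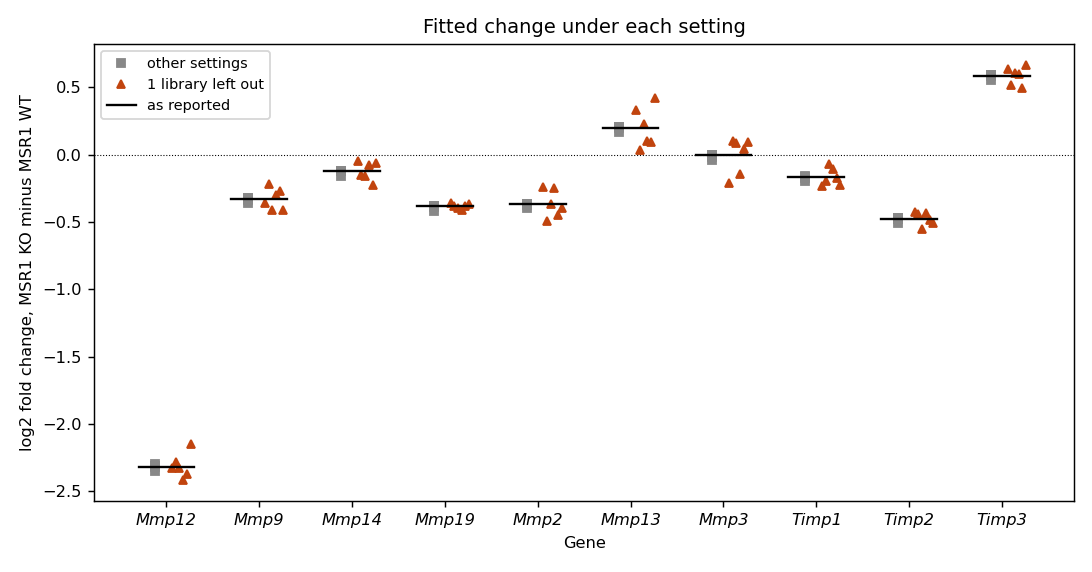
Log2 fold change of each of the 10 genes as reported (line), under the other settings with all 6 libraries (grey squares) and with 1 library left out (orange triangles). Mmp12 stays between -2.42 and -2.15, and the triangles of Mmp3 fall on both sides of 0.

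Levels of different genes can be compared per length of transcript, here as CPM per kb of the union of exons. In MSR1 WT the order was Mmp9 (144 ± 15.1, SD, n = 3), Timp2 (118 ± 6.5) and Mmp12 (105 ± 20.1), where Timp2 and Mmp12 were not separated. Then came Timp1 (40.1 ± 3.4), Mmp14 (32.9 ± 4.1), Mmp2 (18.5 ± 2.7) with Mmp19 (18.4 ± 0.62), which were not separated, Timp3 (9.26 ± 1.1) with Mmp13 (8.83 ± 2.2), which were not separated either, and Mmp3 (0.979 ± 0.18). Mmp12 was thus among the 3 most abundant of these transcripts in MSR1 WT. In MSR1 KO the order began with Mmp9 (115 ± 16.6) and Timp2 (84.8 ± 8.2), followed by Timp1 (35.7 ± 4.3) and Mmp14 (30.2 ± 2.6), which were not separated. Mmp12 came below all 4 of these, at 21.0 ± 0.90 CPM per kb. Below it lay Mmp2 (14.3 ± 2.4), Mmp19 (14.1 ± 0.37) and Timp3 (13.9 ± 1.1). Mmp2 was not separated from Mmp19, nor Mmp19 from Timp3. Then came Mmp13 (10.1 ± 2.0), separated from Timp3, and Mmp3 (0.978 ± 0.24). With the longest annotated transcript as the length, Mmp12 came first in MSR1 WT at 169 CPM per kb, not separated from Mmp9 at 161, and in MSR1 KO it stood at 34.0, below Mmp9, Timp2, Mmp14 and Timp1 but not separated from Timp1.

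Summed over the 7 MMPs on the same per-kb scale, the level was 204, 192 and 221 in MSR1 KO against 323, 324 and 339.5 in MSR1 WT. Mmp12 made up 10.5%, 10.4% and 9.72% of this sum in MSR1 KO and 27.8%, 29.9% and 37.6% in MSR1 WT. Mmp9 made up 58.9%, 50.3% and 57.9% against 46.6%, 48.0% and 37.5%. Mmp9 thus exceeded Mmp12 by 4.82 to 5.96 times in MSR1 KO, whereas in MSR1 WT the ratio lay between 0.997 and 1.68. In the third MSR1 WT library Mmp12 was level with Mmp9. The sums, shares and ratios given here use the union of exons only and depend on that length. With the longest transcript, mean Mmp9 and Mmp12 were 161 and 169 CPM per kb in MSR1 WT and 128 and 34.0 in MSR1 KO. The TIMPs summed to 132, 133 and 139 CPM per kb in MSR1 KO against 178, 164 and 159.5 in MSR1 WT. The ratio of the MMP sum to the TIMP sum was 1.55, 1.44 and 1.59 in MSR1 KO and 1.81, 1.97 and 2.13 in MSR1 WT. These are ratios of transcript, which do not give the balance of active enzyme and inhibitor. Among the inhibitors, Timp3 supplied 9.75% to 11.4% of the TIMP sum in MSR1 KO and 4.93% to 6.45% in MSR1 WT, and Timp2 exceeded Timp3 by 5.34 to 6.97 times against 10.9 to 14.4 times.

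**Figure D4:**
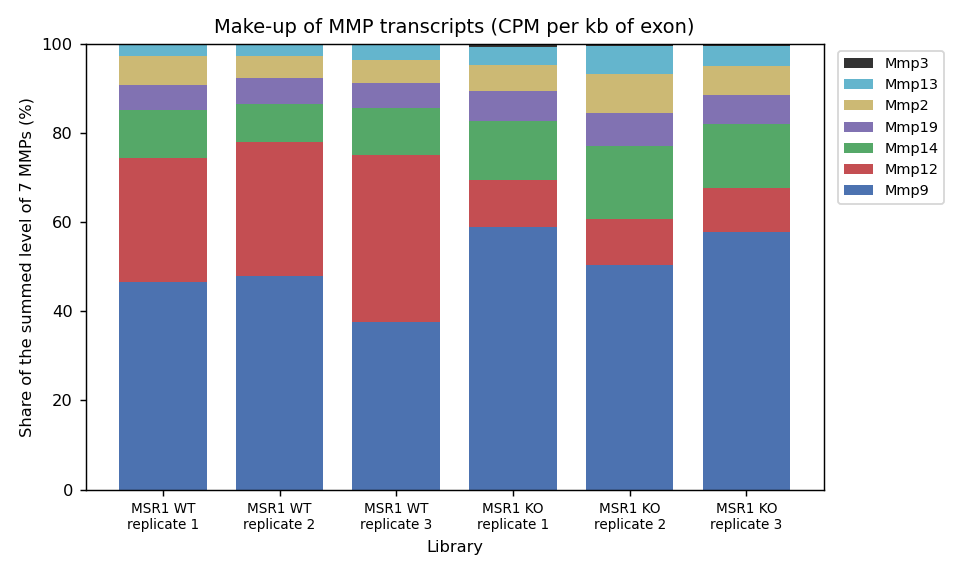
Share of each of 7 MMPs in their summed level (CPM per kb of exon) for each library, as stacked bars reaching 100%. The red Mmp12 segment takes 27.8% to 37.6% in the 3 MSR1 WT libraries and 9.72% to 10.5% in the 3 MSR1 KO libraries.

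The profile of each gene over the 6 libraries was compared with those of 13610 genes of at least 1 CPM, as the root mean square difference of centred log2 CPM. The 5 genes nearest to Mmp12 were Msr1 (0.20), Syt13 (0.24), Itgax (0.30), Fst (0.31) and Svep1 (0.33). Itgax, the integrin CD11c of dendritic cells and some macrophages, had 25.2, 18.4 and 15.4 CPM in MSR1 KO against 112, 77.3 and 144 CPM in MSR1 WT, and like Mmp12 it was highest in the third MSR1 WT library. Its log2 fold change was -2.50 (standard error 0.25). Fst (follistatin, which binds activin) and Svep1 (a matrix and adhesion protein) were far less abundant, at means of 2.30 and 2.59 CPM in MSR1 KO and 8.48 and 9.68 CPM in MSR1 WT. The 5 genes nearest to Mmp2 were Mxra8 (0.04), Col5a2 (0.06), Tulp3 (0.06), P4ha2 (0.06) and Loxl2 (0.07). Of these, Col5a2 is a chain of fibrillar collagen V, P4ha2 a prolyl hydroxylase of collagen and Loxl2 a collagen cross-linking enzyme. The difference between the genotypes is itself part of this likeness, so the list is a description.

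The other members of the protease and inhibitor families were read from lists of names. Of 16 other MMPs, 10 had enough counts to be tested and 0 passed edgeR's quasi-likelihood test at an adjusted p under 0.05 (2 lower at an unadjusted p under 0.05, 1 lower by DESeq2). The nearest to a call was Mmp23, with 4.04, 6.15 and 6.05 CPM in MSR1 KO against 10.8, 8.37 and 9.80 CPM in MSR1 WT (log2 fold change -0.83, standard error 0.20, adjusted p = 0.054). The 2 other abundant MMPs lie in the same cluster as Mmp12. Mmp8 (neutrophil collagenase) had 53.4, 44.5 and 47.4 CPM in MSR1 KO against 38.8, 47.2 and 32.2 CPM in MSR1 WT, and Mmp27 had 47.8, 31.4 and 49.2 CPM against 40.2, 36.8 and 37.3 CPM. Both overlapped between groups, with log2 fold changes of 0.30 (standard error 0.14) and 0.17 (standard error 0.16). The remaining tested members lay under 10 CPM, with log2 fold changes of -0.57 for Mmp11, -0.33 for Mmp17, -0.33 for Mmp28, -0.32 for Mmp24, -0.13 for Mmp16, -0.13 for Mmp15 and 1.176 for Mmp25. Mmp1a, Mmp20 and Mmp21 were at 0 counts in every library. Of 5 other inhibitors, Reck (0.04) and Tfpi2 (0.10) were tested and 0 passed by edgeR, at an unadjusted p or by DESeq2, and Pzp was at 0 counts in every library.

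The ADAM family consists largely of membrane-bound proteases that shed other surface proteins. Of 8 tested, 1 fell and 0 rose by edgeR's quasi-likelihood test (the same counts at an unadjusted p under 0.05 and by DESeq2). The gene that fell was Adam19, with 17.5, 20.6 and 14.9 CPM in MSR1 KO against 28.6, 26.6 and 29.4 CPM in MSR1 WT (log2 fold change -0.68, standard error 0.13, adjusted p = 0.029, edgeR's quasi-likelihood test), and the median of the list was -0.04. The ADAMTS family, secreted proteases of proteoglycans and procollagens, had 10 tested members, of which 4 fell and 0 rose by edgeR's quasi-likelihood test (5 lower and 0 higher at an unadjusted p under 0.05 and by DESeq2), with a median log2 fold change of -0.46. Adamts1 had 9.36, 11 and 7.36 CPM in MSR1 KO against 27.7, 20.4 and 22.9 CPM in MSR1 WT. It thus fell by 1.36 on the log2 scale (standard error 0.18), with an adjusted p = 0.012 in edgeR's quasi-likelihood test. Adamts5, an aggrecanase, fell by 1.15 on the log2 scale (adjusted p = 0.027), Adamts12 by 1.41 (adjusted p = 0.027) and Adamts2, which trims procollagen I, by 0.64 (adjusted p = 0.04). In each of these 4 genes all MSR1 KO libraries lay below all MSR1 WT libraries, as held for 13.4% of all tested genes. The 4 were picked by their calls in the same libraries, so this adds nothing to the calls.

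In the plasminogen system, whose product plasmin activates several proMMPs, 2 of 9 tested genes fell and 0 rose by edgeR's quasi-likelihood test (2 higher and 5 lower at an unadjusted p under 0.05, 1 higher and 4 lower by DESeq2), and the median log2 fold change was -0.26. Anxa2, a plasminogen receptor, fell from 343, 358 and 341 CPM in MSR1 WT to 227, 226 and 233 CPM in MSR1 KO (log2 fold change -0.60, standard error 0.06, adjusted p = 0.0045, edgeR's quasi-likelihood test). Serpine2, an inhibitor of thrombin and urokinase, fell by 0.83 on the log2 scale (adjusted p = 0.02). Plau, the activator urokinase, and Plaur, its receptor, both named after their values were seen, lay lower in every MSR1 KO library but did not pass (log2 fold changes -0.53 and -0.42, adjusted p = 0.075 and 0.104, edgeR's quasi-likelihood test). Plg itself was at 0 counts in every library. Of 10 tested activators, partners and uptake receptors of MMPs, 0 passed edgeR's quasi-likelihood test (1 higher and 1 lower at an unadjusted p under 0.05, 0 by DESeq2), with the largest log2 fold changes in Pcsk6 (-0.80), Cav1 (0.63), Mrc2 (-0.37), Thbs2 (-0.35) and Cd44 (0.29).

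The cysteine cathepsins, lysosomal proteases that share elastin and collagen as substrates with MMPs, changed in both directions. Of 10 tested, 2 rose and 3 fell by edgeR's quasi-likelihood test, and the median log2 fold change was 0.05. At an unadjusted p under 0.05, and likewise by DESeq2, 4 were higher and 3 lower. Ctsl, a major endoprotease of the lysosome, had 1090, 949 and 1272 CPM in MSR1 KO against 1566, 1553 and 1631 CPM in MSR1 WT (log2 fold change -0.52, standard error 0.10, adjusted p = 0.031, edgeR's quasi-likelihood test). Ctsk, the collagenase of osteoclasts, fell by 0.85 on the log2 scale (adjusted p = 0.027) and Ctsf by 0.82 (adjusted p = 0.032). Ctsc, which activates serine proteases of leukocytes, rose from 1240, 1004 and 1280 CPM in MSR1 WT to 1687, 1896 and 1541 CPM in MSR1 KO (log2 fold change 0.54, standard error 0.11, adjusted p = 0.035), and Ctsw rose by 1.27 (adjusted p = 0.0496).

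Genes of the elastic fibre, whose elastin is a classic substrate of macrophage elastase, had a median log2 fold change of -0.78, against -0.002 for all tested genes, and 14 of the 15 tested had a negative value. Of them 5 fell and 0 rose by edgeR's quasi-likelihood test (10 lower and 0 higher at an unadjusted p under 0.05, 8 lower and 0 higher by DESeq2). Lox, the enzyme that cross-links elastin and collagen, had 143, 175 and 140.1 CPM in MSR1 KO against 332, 261 and 302 CPM in MSR1 WT (log2 fold change -0.97, standard error 0.12, adjusted p = 0.0092). Its relative Loxl1 fell by 0.78 on the log2 scale (adjusted p = 0.026), the microfibril genes Fbn1 by 0.84 (adjusted p = 0.021) and Ltbp2 by 0.84 (adjusted p = 0.022), and the fibulin gene Fbln5 by 0.88 (adjusted p = 0.027). Eln, which encodes elastin, was not tested, with 0 counts in every MSR1 KO library and 4, 4 and 0 counts in MSR1 WT, so its level was at the limit of detection in both. Of 10 tested AP-1 subunits, the factors named for the motif shown above, 0 passed edgeR's quasi-likelihood test (2 higher and 2 lower at an unadjusted p under 0.05, 1 higher by DESeq2). The largest log2 fold changes were those of Batf2 (1.10), Fosb (-0.65), Fosl1 (-0.60), Fos (0.32) and Batf3 (-0.26).

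Over all 9 lists, 84 of 109 genes were tested, of which 2 rose, 15 fell and 67 did not pass, where 2.25% and 2.66% of all tested genes rose and fell. These lists, and the marker lists below, were chosen with earlier results of these data known. Nothing is therefore read from setting their counts or medians beside those of all tested genes. The p-values of list genes do not allow for that choice. Each of the 17 called genes kept its sign with any library left out, but only Anxa2 and Lox were called in all 6 such fits. Without the first MSR1 KO library 15 of the 17 calls were lost, and without the first MSR1 WT library also 15.

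MMPs and TIMPs are made by several cell types, so markers were read in the same libraries. Macrophage markers summed to 30770 to 32290 CPM in MSR1 KO and 30210 to 33330 CPM in MSR1 WT, led by Lyz2, Csf1r and Adgre1. Markers of the labelled cell type were thus abundant, and their sums overlapped between groups. Lyz2 alone supplied 44.6% of the sum. Of the 15 markers 8 had every MSR1 KO library above every MSR1 WT library, and 1 had every one below. By edgeR's quasi-likelihood test 2 of the 15 macrophage markers rose (Fcgr1 and Ptprc) and 1 fell (Mrc1), the 3 being named after their values were seen. At an unadjusted p under 0.05, 7 were higher and 3 lower, and by DESeq2 4 were higher and 1 lower. With each library left out in turn, Fcgr1 was called in 4 of 6 fits, Ptprc in 1 and Mrc1 in 1. All 22 stromal markers were tested and none was at 0, although the transwell keeps the BMSCs apart. They summed to 2016, 2651 and 2086 CPM in MSR1 KO against 3397, 2721 and 3116 CPM in MSR1 WT, led by Col1a2, Col1a1 and Sparc. Of them 7 fell and 0 rose by edgeR's quasi-likelihood test, and the median log2 fold change was -0.39. At an unadjusted p under 0.05, 2 were higher and 12 lower, and by DESeq2 2 were higher and 9 lower. Without the first MSR1 WT library only Kitl, named after its values were seen, was still called. Members of the list differed in sign, and 4 of the 22 had positive values, namely Thy1 (1.31), Eng (0.47), Nt5e (0.46) and Lum (0.46), none of which passed and all named after their values were seen. Thy1, Eng and Nt5e encode CD90, CD105 and CD73, surface markers of BMSCs. Mmp2 followed the same order of libraries, with the second MSR1 KO library highest and the second MSR1 WT library lowest within its group. In these bulk samples fewer cells of a type and less RNA per cell cannot be told apart. The part of stromal RNA in the values of Mmp2, Timp2, the ADAMTS genes and the elastic fibre genes was not tested.

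**Figure D5:**
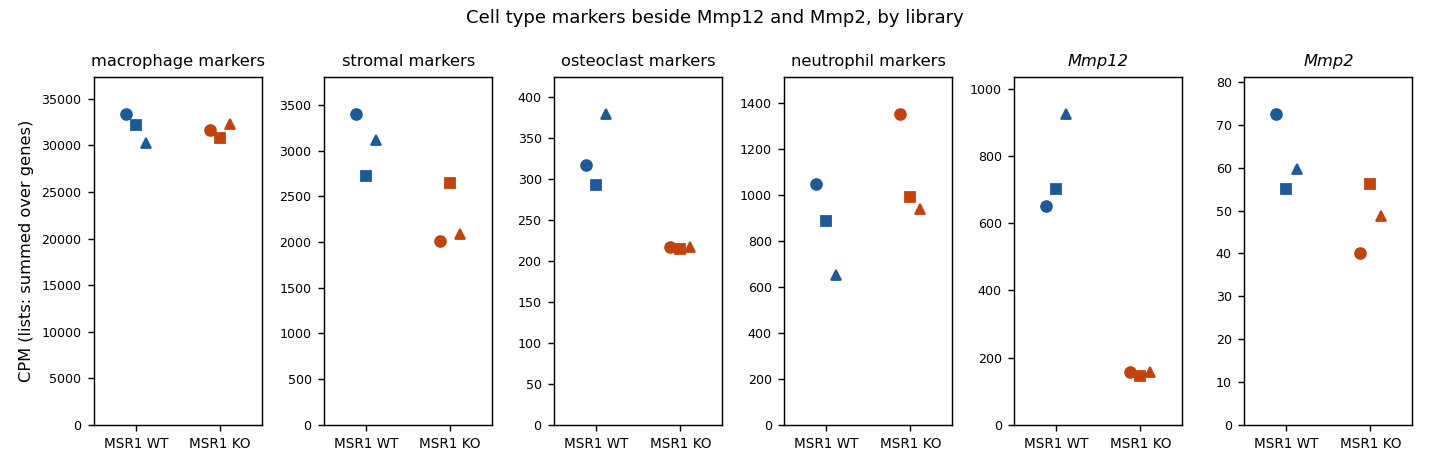
Summed CPM of 4 marker lists, and CPM of Mmp12 and Mmp2, in each library (circle, square and triangle for replicates 1, 2 and 3, MSR1 WT in blue and MSR1 KO in orange, linear axes from 0). Osteoclast markers (215 to 217 in MSR1 KO against 293 to 379 CPM) and stromal markers (2016 to 2651 against 2721 to 3397 CPM) do not overlap between the genotypes, the latter by a narrow margin, whereas macrophage markers do.

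Osteoclasts and dendritic cells also arise from bone marrow precursors. Osteoclast markers summed to 217, 215 and 217 CPM in MSR1 KO against 317, 293 and 379 CPM in MSR1 WT, led by Atp6v0d2, Nfatc1 and Acp5. Of the 8 genes 6 were tested and 2 fell, Atp6v0d2 (log2 fold change -1.48, standard error 0.13, adjusted p = 0.0032) and Acp5 (-0.98, standard error 0.18, adjusted p = 0.027, edgeR's quasi-likelihood test), while Nfatc1 (0.16), Itgb3 (0.47) and Ocstamp (0.70) had positive values that did not pass, the last 2 named after their values were seen, and Calcr was at 0 counts in every library. The remaining tested osteoclast marker, Dcstamp, had a negative value (-1.24) that did not pass either. Its mean was 0.45 CPM in MSR1 KO and 1.06 CPM in MSR1 WT, and its libraries overlapped between groups. Dcstamp too was named after its values were seen. The dendritic cell list summed to 28.8 to 35.8 CPM against 80.7 to 149 CPM, with Itgax supplying 88.2% of the sum. Of its 6 genes 1 fell (Itgax) and 1 rose (Dpp4) by edgeR's quasi-likelihood test. At an unadjusted p under 0.05, 3 were higher and 1 lower, and by DESeq2 2 were higher and 1 lower. With each library left out in turn, Itgax was called in all 6 fits and Dpp4 in 2. Zbtb46, the other of the 3 leading genes of the list, had a log2 fold change of -0.53 that did not pass. Xcr1 (2.04) and Ccr7 (2.49), named after their values were seen, did not pass either but lay higher in every MSR1 KO library, and the median of the 6 was 0.74, opposite in sign to the difference of the sums. The part of osteoclast and dendritic cell RNA in the value of Mmp12 was not tested. Neutrophil markers, led by Csf3r, Ngp and S100a9, summed to 938 to 1351 CPM in MSR1 KO and 652 to 1049 CPM in MSR1 WT. Of these 0 of 11 passed edgeR's quasi-likelihood test (4 higher at an unadjusted p under 0.05, 3 by DESeq2). The median log2 fold change of the 11 was 0.41, and 0 of them had a negative value. Osteoblast markers were near the floor, at 15.7 to 17.2 and 14.5 to 19.1 CPM in sum, with Runx2 leading, Bglap and Dmp1 at 0 counts in every library and 0 of 4 tested genes passing (1 higher at an unadjusted p under 0.05, 0 by DESeq2). Endothelial markers, led by Pecam1, Cdh5 and Kdr, summed to 87.8 to 110.5 and 55.01 to 83.3 CPM, and of 5 tested genes Pecam1 rose. With each library left out in turn, Acp5 and Pecam1 were each called in 1 of 6 fits. Over all marker lists, each of the 15 called genes kept its sign, but only 3 (Kitl, Atp6v0d2 and Itgax) were called in all 6 fits. The calls lost were 11 without the first MSR1 KO library and 12 without the first MSR1 WT library.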

How the data were processed

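RNA-seq libraries of 3 MSR1 KO and 3 MSR1 WT macrophage cultures were compared. The paper's methods name TopHat as the aligner, whereas the submitters' processing notes name fastp 0.17.1, HISAT2 2.1.0, DESeq2 1.18.1 and R 3.4.3 with no role given. The authors deposited raw counts per gene and library, although their methods speak of FPKM. Beside them stand a deposited signal for each library (a normalized count) and the results of the authors' own comparison, namely a log2 fold change with its p-value and adjusted p-value, none of which was used. Counting program, strand setting and genome build are not given in the sources used here. Of 52550 gene identifiers, 52403 occur in GENCODE M21 (GRCm38), 49909 with the same start and end, and lengths came from it. No value column was left unmapped (0). Date-like names (27 symbols altered by spreadsheet software, 26 restored) and 89 shared symbols, each given to the row with most counts, concern none of the 10 genes.

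The 10 genes, the 9 gene lists and the 7 marker lists were chosen with earlier results of these data known. Low counts were removed with filterByExpr, TMM factors were applied, and glmQLFit and glmQLFTest of edgeR 4.0.16 (R 4.3.3) compared the genotypes over all 6 libraries, with no covariate. Adjustment over the 16402 tested genes was by Benjamini-Hochberg, and genes were called at an adjusted p under 0.05. CPM used the TMM library sizes, and standard errors were derived from the fold change and the F statistic. Total counts of 36143518 to 47417448 per library limit the precision of genes with few counts, such as Mmp3. Replicates of a group differed by more than sampling noise (chi-square per degree of freedom 25.7 to 50.8), so none was counted as a duplicate.

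Named were all 10 genes, of each list the called genes (with none or more than 5 called, the 5 largest changes, and for other MMPs all that were tested), of each marker list the 3 most abundant genes and those at 0, Msr1, and the 5 nearest profiles of Mmp12 and Mmp2. Promoter sequences were taken from RefSeq (GRCm38.p6), and Mmp9, Mmp2 and Mmp19 were not matched. Alternatives were DESeq2 1.42.0, edgeR with the size factors of DESeq2 or with library size only, a looser filter (total count above 0), a stricter one (10 counts or more in each library), a block for the replicate number, each library left out, and the longest transcript as gene length.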

Additional observations from a re-analysis of the deposited data

How the results depend on the processing

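The log2 fold change of Mmp12 stayed between -2.42 and -2.15 and was called in each fit that was run. Under DESeq2, 727 genes were called higher and 850 lower, and 6 genes of the 9 lists higher. With no filter beyond a total count above 0 these values were 237, 288 and 1. With library size alone 1 list gene was called higher, and Timp3 fell under the fold of 1.5, so that 0 of the 10 genes were higher by the study's rule. With the replicate number as a block, 59 genes were called higher and 78 lower, of the 10 genes 0 higher and 1 lower (Mmp12), and of the list genes 0 higher and 4 lower. Correlations of deviations were -0.026, 0.019 and -0.005 for equal numbers, and not every library correlated best with its own number. The deviations of the 3 libraries of a group cancel, so these values cannot decide whether the libraries were prepared in pairs. With each library left out, 18 to 407 genes were called higher and 53 to 372 lower, of the 10 genes 0 to 1 higher and 1 to 2 lower (0 to 1 higher by the study's rule), and of the list genes 0 to 3 higher and 2 to 12 lower. Such fits hold fewer libraries. Without the first MSR1 WT library the counts of all genes were lowest, at 18 and 53. The median over all genes shifted by under 0.1 (log2) in every setting (-0.034 with library size alone). Depth limits Mmp3 and Eln.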
